A study of Mus musculus with 97 samples.

Results

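The genes described here are 8 mouse genes of the aryl hydrocarbon receptor (AHR) pathway and of the antioxidant response linked to it: Ahr, Arnt, Ahrr, Tiparp, Cyp1a1, Cyp1b1, Nqo1 and Nfe2l2. They were chosen by symbol, out of 37620 genes in the count table, to look for effects of auxin itself in cells where auxin is used to degrade a protein. The choice was made with earlier results of these data known. AHR is a transcription factor of the bHLH-PAS family that waits in the cytoplasm with HSP90 and other chaperones. When it binds a ligand, often a flat aromatic molecule, it enters the nucleus, pairs with ARNT and binds a short DNA motif, the xenobiotic response element, near genes of drug metabolism. Indole compounds, a class to which the auxin indole-3-acetic acid belongs, include known AHR ligands, and Cyp1a1 is the textbook readout of the active receptor.

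RNA was measured in 18 libraries, 3 in each of 6 groups. All 18 came from the same mouse embryonic stem (ES) cell line, named GFP Sox2-AID, whose Sox2 protein carries an auxin-inducible degron, a tag that lets auxin trigger its destruction. Cells grew on gelatine in medium with serum and the cytokine LIF, with 0.5 mM auxin for 3 h or with none. The labels do not say whether these cells also had the medium's optional inhibitors. Hoechst-33342, a DNA dye, was present at 20 µM at the end of the culture, and cells were sorted on Hoechst and GFP into early G1, late G1 and G2. Ribosome-depleted total RNA was sequenced. The treated groups had both auxin and the degron, and none of the 18 libraries is of a line without the degron given auxin, so an effect of auxin itself and an effect of losing Sox2 cannot be told apart. The labels do not say whether the 3 libraries of a group came from separate cultures, so p-values measure the spread between these libraries, which may be technical. In sorted bulk samples, fewer cells with a transcript and less transcript per cell cannot be told apart.

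Total counts were 24841963 to 37587322 per library. The gene AC157822.1 took 15.8% to 21.2% of the counts and 50.5% to 62.4% of the TPM (a level scaled by transcript length). The ES cell label fits the markers: the summed level of 9 ES cell markers was 3629 to 4266 CPM (counts as a share of the scaled library) over all libraries, and the lowest of them, Utf1, was at 27.2 CPM or more. The 12 fibroblast or feeder markers summed to 22.1 to 50.3 CPM, led by Tagln (8.02 to 34.5 CPM) and Fbn1 (5.08 to 9.52 CPM), and 6 of the 12 stayed under 1 CPM in every library. The Sox2 transcript was at 277 to 394.7 CPM without auxin and at 314.2 to 412.8 CPM with it, with a log2 fold change of 0.09 ± 0.08 (SE, adjusted p = 0.527 in edgeR's quasi-likelihood test). Since the degron acts on the protein, this checks neither the depletion nor the labels.

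The 8 genes fell into a high and a low set when levels were compared per length. Nfe2l2, which encodes NRF2, the master regulator of antioxidant genes, had a mean of 5.5 TPM over the 18 libraries, with a range of 4.04 to 6.96 TPM. Nqo1, a quinone reductase and a target of both AHR and NRF2, followed at 4.18 TPM (3.35 to 4.97 TPM). Tiparp, an ADP-ribosyltransferase that AHR induces and that represses it in return, had a mean of 3.5 TPM (2.18 to 4.87 TPM), and Arnt, the obligate partner of AHR, a mean of 2.1 TPM (1.23 to 2.78 TPM). The ranges of these neighbours in the order overlapped. Every value of the other 4 genes lay below every Arnt value. Ahr itself had a mean of 0.0689 TPM (0.03 to 0.1 TPM). Cyp1a1, a P450 enzyme that oxidises aromatic hydrocarbons, had a mean of 0.0589 TPM (0.01 to 0.14 TPM). Ahrr, which encodes a repressor that competes with AHR for ARNT, had a mean of 0.0206 TPM (0 to 0.04 TPM). Cyp1b1, a second P450 enzyme of the pathway, had a mean of 0.0144 TPM (0 to 0.03 TPM), and TPM was deposited to 2 decimals, so these lowest values are coarse.

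**Figure D1:**
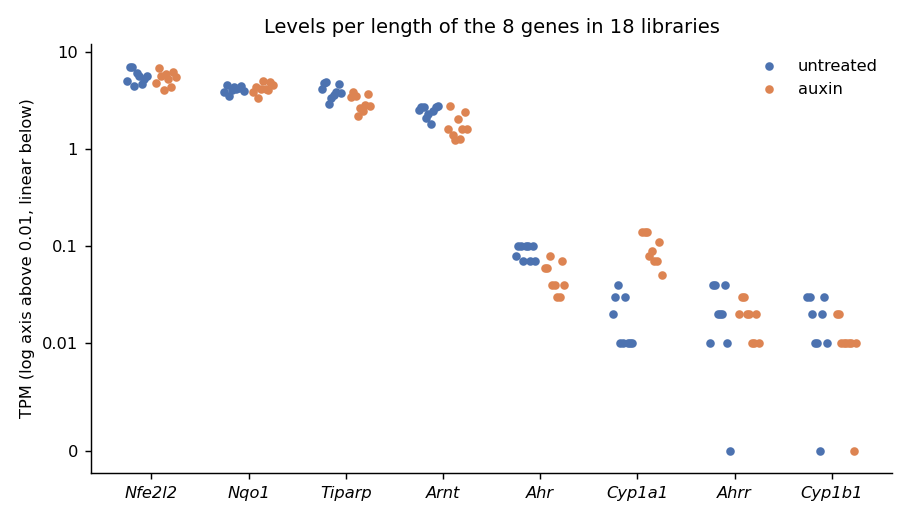
Levels of the 8 genes in TPM, on a log axis above 0.01 and a linear axis below it, with a point for each of the 18 libraries and the genes ordered by mean. Nfe2l2, Nqo1, Tiparp and Arnt lie at 1.23 to 6.96 TPM, the other 4 genes at 0.14 TPM or less, and Cyp1a1 is the gene whose auxin points (0.05 to 0.14 TPM) lie entirely above its untreated points (0.01 to 0.04 TPM).

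Promoters are shown for 4 genes that the receptor is known to drive: the P450 genes, a repressor gene and the reductase gene. They were also chosen because Cyp1a1 and Nqo1 rose with auxin. The promoter of Tiparp, another known target that was lower with auxin without being called, is not shown. The sequences are from RefSeq on GRCm38.p6, 250 bases before to 50 bases after the annotated start, written 5′ to 3′ on the strand of the gene. Capitals mark every match to the core of the xenobiotic response element, GCGTG, to a basic antioxidant response element, TGACNNNGC, and to the TATA box, TATAAA, each searched on both strands. On the opposite strand the core reads CACGC.
Cyp1a1 (chr9:57697363-57697662, forward strand): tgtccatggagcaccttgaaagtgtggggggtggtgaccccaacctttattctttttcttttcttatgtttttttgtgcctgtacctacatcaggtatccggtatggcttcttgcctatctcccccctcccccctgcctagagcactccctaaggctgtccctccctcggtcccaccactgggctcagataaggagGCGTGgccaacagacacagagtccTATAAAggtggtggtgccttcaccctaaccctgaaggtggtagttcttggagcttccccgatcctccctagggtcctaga
Cyp1b1 (chr17:79715012-79715311, reverse strand): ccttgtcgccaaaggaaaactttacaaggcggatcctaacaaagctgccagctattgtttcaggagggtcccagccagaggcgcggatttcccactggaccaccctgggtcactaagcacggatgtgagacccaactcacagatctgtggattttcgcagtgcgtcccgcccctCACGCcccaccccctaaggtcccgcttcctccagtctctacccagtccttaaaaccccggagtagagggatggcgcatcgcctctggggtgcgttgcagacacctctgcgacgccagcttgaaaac
Ahrr (chr13:74292282-74292581, reverse strand): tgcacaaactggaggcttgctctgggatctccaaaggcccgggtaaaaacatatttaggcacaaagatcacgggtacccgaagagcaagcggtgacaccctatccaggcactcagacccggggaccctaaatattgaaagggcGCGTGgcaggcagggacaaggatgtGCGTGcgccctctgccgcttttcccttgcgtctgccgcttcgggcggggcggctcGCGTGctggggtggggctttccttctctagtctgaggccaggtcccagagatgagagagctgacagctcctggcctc
Nqo1 (chr8:107403156-107403455, reverse strand): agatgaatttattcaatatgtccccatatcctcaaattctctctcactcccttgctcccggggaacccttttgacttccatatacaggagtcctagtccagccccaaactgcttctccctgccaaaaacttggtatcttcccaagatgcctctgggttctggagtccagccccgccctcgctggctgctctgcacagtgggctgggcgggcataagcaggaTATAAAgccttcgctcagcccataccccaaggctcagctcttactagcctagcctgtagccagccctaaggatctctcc
RefSeq gave promoters for 7 of the 8 genes. In Cyp1a1 the core motif began 54 bases before the start, and a TATA box began 30 bases before it. Cyp1b1 had 1 core motif, on the opposite strand, 76 bases before the start. Ahrr had 3, at 107, 82 and 27 bases before the start, and the last was also its only match to the longer form TNGCGTG. Nqo1 had no match to the core in this window and a TATA box 29 bases before its start. Of the promoters not shown, Arnt and Tiparp each held 1 core motif and Nfe2l2 held none, while Arnt had 2 matches and Nfe2l2 had 1 match to the antioxidant element. The core stood in 32.4% of 32851 promoters in the same table, TNGCGTG in 5.07%, the antioxidant element in 12.4% and the TATA box in 13.6%, so a match is common and describes the letters alone.

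With auxin, Cyp1a1 rose in every phase. In the test without library numbers as a block, the other calls among the 8 genes were small and seen in the average over phases. Averaged over early G1, late G1 and G2, Cyp1a1 rose 6.59-fold, Nqo1 rose 1.19-fold and Ahr fell to 0.69 of its untreated level, while Arnt, Ahrr, Tiparp, Cyp1b1 and Nfe2l2 did not pass the test. All 8 genes passed the filter on low counts and were tested among 16011 genes, and a gene was called at an adjusted p under 0.05. In the average, 2 of the 8 genes rose and 1 fell, where 5.68% of all tested genes were called (2.6% up and 3.09% down, 416 and 494 genes). The 8 genes were chosen with earlier results of these data known, so their counts beside the shares, here and by phase, are no test. Tested instead on log2(TPM + 1) with limma, the split of all calls was 59 up and 689 down, the median of all genes was -0.08, and it called Cyp1a1 up and Ahr, Arnt and Tiparp down. Relative to that median Ahr stood at 0.03, Arnt at -0.26 and Tiparp at -0.225. Changes of a gene as low as Ahr (0.03 to 0.1 TPM) shrink on this scale, so its place relative to the median depends on the setting. It was -0.029 on the same scale with all genes above 0 kept, and -0.17 on log2(TPM + 0.1). In early G1, Cyp1a1 was the 1 gene of the 8 called, up, where 0.106% of all genes were called (0.0812% up). In late G1 it was again 1 of 8, against 1.02% (0.493% up), and in G2 1 of 8, against 0.668% (0.387% up). The median log2 fold change of the 8 genes in the average was 0.01, the same to 2 decimals as the median of all tested genes.

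**Figure D2:**
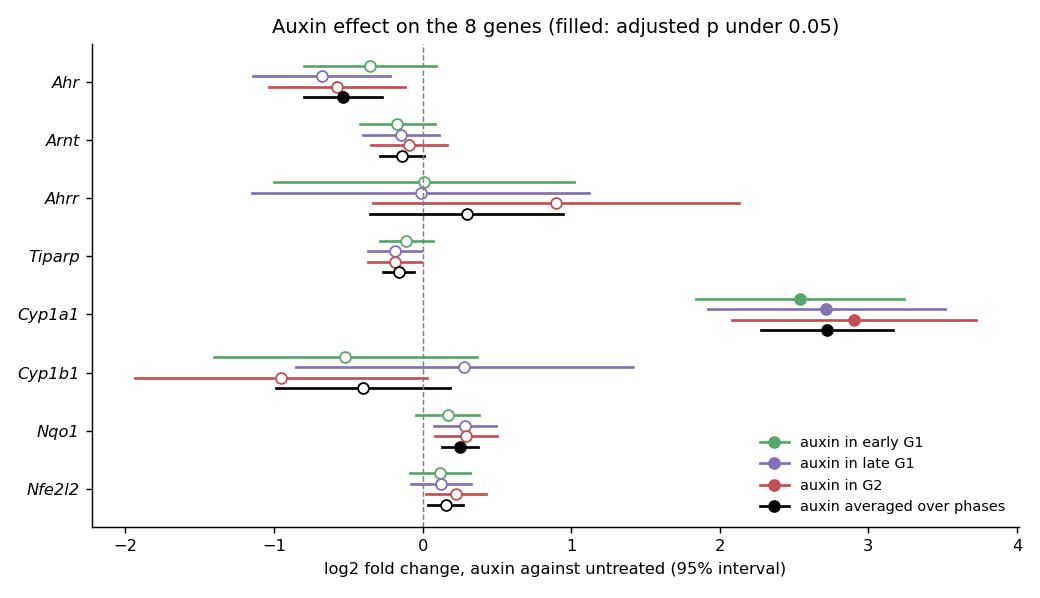
Log2 fold change of each gene with auxin against without, on the x axis, with 95% intervals, by phase and averaged over phases. Filled points have an adjusted p under 0.05: Cyp1a1 in all 4 comparisons (2.54, 2.72, 2.90 and 2.72), and Nqo1 (0.25) and Ahr (-0.54) in the average.

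Ahr, the receptor, was lower with auxin. In early G1 it had 64, 74 and 72 counts (replicates 1 to 3) without auxin and 61, 54 and 56 with it. In late G1 the counts were 57, 65 and 58 without auxin and 53, 33 and 29 with it, and in G2 they were 53, 67 and 47 without and 41, 54 and 37 with. Once scaled to CPM, every auxin library lay below every untreated library of its own phase, a pattern that 1.01% of all tested genes shared in all 3 phases. Mean levels were 2.25 ± 0.270 (SD, n = 3) without and 1.76 ± 0.0924 CPM with auxin in early G1, 2.02 ± 0.337 and 1.25 ± 0.264 CPM in late G1, and 1.93 ± 0.365 and 1.29 ± 0.207 CPM in G2. The average log2 fold change was -0.54 ± 0.13 (SE), with an adjusted p of 0.0149 in edgeR. Phase by phase it was -0.35 ± 0.21 (early G1), -0.68 ± 0.22 (late G1) and -0.58 ± 0.22 (G2), with edgeR adjusted p of 0.867, 0.211 and 0.442, so none passed alone. The average call was kept when any single library was left out (adjusted p up to 0.0404), but without the libraries numbered 2 the adjusted p was 0.14 and without those numbered 3 it was 0.2.

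Arnt, the partner, ranged from 26.3 to 37.1 CPM without auxin (median 32.7 CPM) and from 23.1 to 35.2 CPM with it (median 29.8 CPM). The groups overlapped, and 1 of 9 comparisons of libraries with the same number and phase was higher with auxin. The labels do not state that same-numbered libraries belong together. No share of all tested genes was computed for such counts, here or below. The average log2 fold change of Arnt was -0.14 ± 0.07 (SE, adjusted p = 0.248 in edgeR). Around the receptor, 4 genes encoding chaperones and an alternative partner were listed, and all 4 were tested. None was called in the average by edgeR, DESeq2 or limma on TPM, and their median log2 fold change was 0.07. In edgeR 1 of the 4 had an unadjusted p under 0.05, where 22.7% of all tested genes did. The smallest p was that of Ptges3, the HSP90 co-chaperone p23, with 346.5 ± 39.1 CPM without and 385 ± 36.5 CPM with auxin (SD, n = 9) and a log2 fold change of 0.15 ± 0.06. Hsp90aa1 and Hsp90ab1, the HSP90 chaperones, had log2 fold changes of 0.14 ± 0.07 and 0.01 ± 0.07. Arnt2, an alternative partner, had -0.14 ± 0.18.

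Ahrr and Tiparp, the feedback repressors, are both known targets of the receptor. Ahrr counts were low: 10, 26 and 26 without auxin and 16, 24 and 25 with it in early G1, 15, 11 and 9 against 18, 10 and 7 in late G1, and 12, 4 and 1 against 9, 18 and 10 in G2. The groups overlapped in every phase. The average log2 fold change was 0.30 ± 0.31 (SE), with a 95% interval of -0.35 to 0.95 and an edgeR adjusted p of 0.592. That interval lies entirely below the Cyp1a1 interval of 2.27 to 3.17.

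Tiparp was measured far more precisely, with 1315 to 2323 counts per library. In early G1 it was at 70.4, 74.9 and 68.4 CPM without auxin and 66.3, 66.8 and 65.1 CPM with it. In late G1 it was at 57.9, 56.5 and 55.8 CPM without and 50.2, 46.9 and 52.2 CPM with, and in G2 at 66.7, 75.8 and 58.5 CPM without and 61.8, 59.9 and 54.5 CPM with. Auxin libraries lay below untreated ones without overlap in early G1 (as did 6.07% of tested genes) and late G1 (6.9%) and overlapped in G2. None of the 9 same-number comparisons was higher with auxin, a count for which no share of all genes was computed. The average log2 fold change of -0.16 ± 0.05 (SE) missed the threshold at an edgeR adjusted p of 0.0607. Its 95% interval, -0.27 to -0.06, holds no rise. DESeq2 called it lower, with an adjusted p of 0.0254. Among 13 tested genes of the other PARP family members, none was called in the average by edgeR, DESeq2 or limma on TPM. In edgeR 3 of the 13 had an unadjusted p under 0.05, where 22.7% of all tested genes did. Parp9 had the smallest p, with a log2 fold change of 0.28 ± 0.10.

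Cyp1a1 had the largest response of the 8 genes. In early G1 it had 8, 11 and 12 counts without auxin and 68, 54 and 67 with it. In late G1 it had 4, 3 and 8 counts without auxin and 44, 32 and 27 after treatment. In G2 it had 5, 3 and 4 counts without auxin and 39, 46 and 24 with it. Every auxin library was above every untreated library of any phase, 0.771 to 2.19 CPM against 0.100 to 0.399 CPM, which was true of 0.219% of the tested genes, 35 in all. Its log2 fold change stood at 2.54 ± 0.33 (SE, adjusted p = 0.0016 in edgeR) for early G1, 2.72 ± 0.38 (0.00072) for late G1 and 2.90 ± 0.39 (0.000778) for G2. In the average it was 2.72 ± 0.21, a 6.59-fold rise with a 95% interval of 4.84 to 8.97 and an adjusted p of 2.63e-07, and Cyp1a1 ranked 5 by size of rise among the 16011 genes. In early G1, where library numbers also paired the samples, the replicate block moved the count of all genes called from 17 to 255. Leaving out any 1 library kept every Cyp1a1 call, with a log2 fold change of 2.63 to 2.93 in the average. Without all libraries numbered 1, or all numbered 2, the single-phase adjusted p were 0.0724 to 0.297, while the average stayed called at 0.000855 and 0.00182.

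**Figure D3:**
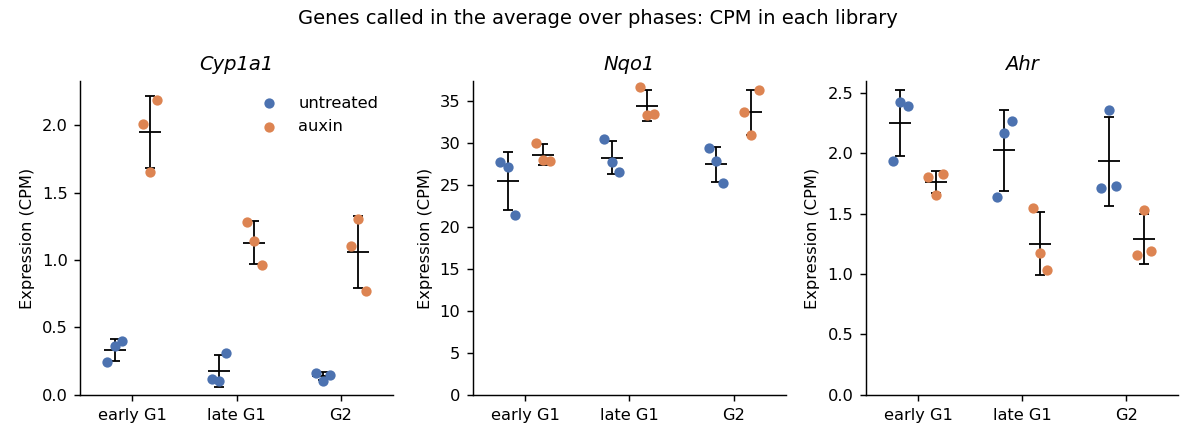
CPM of Cyp1a1, Nqo1 and Ahr by phase, with a point for each library and a black mark and bar for the mean and SD of 3 libraries. Cyp1a1 goes from 0.138 to 0.334 CPM without auxin to 1.06 to 1.95 CPM with it in group means, Nqo1 is higher in CPM in every phase (on log2(TPM + 1) its early G1 sign turns, to -0.03, where the median of all genes is -0.08) and Ahr lower.

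The level reached with auxin was still low. Cyp1a1 had a mean of 1.95 ± 0.270 CPM (SD, n = 3) in early G1 with auxin, 1.13 ± 0.160 CPM in late G1 and 1.06 ± 0.270 CPM in G2, against 0.334 ± 0.0815, 0.176 ± 0.118 and 0.138 ± 0.0291 CPM without auxin. The means were thus ordered early G1, late G1, G2 in both treatments, and the late G1 and G2 means differed by less than the late G1 SD in each. Per length, its highest value of 0.14 TPM lay below the lowest Arnt value of 1.23 TPM. On the log2(TPM + 1) scale, where such low values shrink, its average log2 fold change was 0.11 and was still called by limma (adjusted p = 7.92e-05). By phase, limma on that scale called Cyp1a1 in early G1 (0.15, adjusted p = 0.0045), but not in late G1 (0.09, 0.108) or G2 (0.09, 0.134).

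No tested neighbour of Cyp1a1 on the chromosome was called higher. Cyp1a2, its closest paralogue and the gene beside it, had 0 to 3 counts in each untreated library and 0 to 5 in each auxin library, 9 and 13 in all, too few to be tested. Reads shared by these related genes could be split between them in the estimated counts. Csk, a tyrosine kinase on the same side, had a log2 fold change of 0.05 ± 0.08 (SE, adjusted p = 0.719 in edgeR). On the other side, Edc3, an mRNA decapping factor, fell by 0.16 ± 0.04 on the log2 scale (edgeR adjusted p = 0.0372), and Clk3, a kinase of splicing factors, had -0.09 ± 0.08 (0.529).

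Summed trophectoderm markers were higher with auxin without overlap in each phase, as Cyp1a1 was. Among single tested genes, 1.04% were higher without overlap in all 3 phases, and no such share was computed for sums of genes. The marker lists were chosen with earlier results of these data known, and Pdgfra is in both the fibroblast and the primitive endoderm list. The summed level of 10 trophectoderm markers was 40.8 to 51.5 CPM without auxin and 55.8 to 61.4 CPM with it in early G1, 31.2 to 36.8 and 44.8 to 53.7 CPM in late G1, and 28.6 to 33.2 and 39.9 to 48.6 CPM in G2. Of the 8 of them that were tested, 5 rose in the average (Gata2, Eomes, Cdx2, Krt18 and Krt8) and 1 fell (Tfap2c), where 2.6% of all tested genes rose and 3.09% fell, and 3 of the 10 were under 1 CPM in every library. Primitive endoderm markers summed to 10.8 to 15.2 CPM without and 15.01 to 21.9 CPM with auxin in early G1, 8.89 to 13.1 and 11.4 to 16.4 CPM in late G1, and 17.2 to 22.4 and 17.4 to 28.6 CPM in G2, overlapping in each phase, with 1 of 7 tested called (Sox7, up). The fibroblast or feeder markers summed to 27.96 to 33.08 CPM without and 33.41 to 35 CPM with auxin in early G1, 22.11 to 25.24 and 26 to 26.83 CPM in late G1, and 34.89 to 45 and 39.98 to 50.3 CPM in G2, without overlap in both G1 groups. None of their 7 tested genes was called in the average by edgeR, DESeq2 or limma on TPM. In edgeR 1 of the 7 had an unadjusted p under 0.05, where 22.7% of all tested genes did. Of 9 ES cell markers, 4 fell (Zfp42, Nanog, Fgf4 and Esrrb), against the 3.09% of all tested genes. The part of these markers' cells in the Cyp1a1 result was not tested.

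Cyp1b1, the other P450 gene of the AHR pathway among the 8, was not called with auxin. Its counts were 24, 20 and 13 without auxin and 15, 15 and 11 with it in early G1, 7, 6 and 2 against 6, 6 and 6 in late G1, and 16, 16 and 5 against 11, 4 and 7 in G2. The groups overlapped in every phase, and 3 of 9 same-number comparisons were higher with auxin. The average log2 fold change was -0.40 ± 0.28 (SE), with a 95% interval of -0.98 to 0.19 and an edgeR adjusted p of 0.404. This interval, too, lies below that of Cyp1a1.

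Nqo1 rose slightly. It was at 27.7, 27.2 and 21.5 CPM without auxin and 30.1, 28.0 and 27.9 CPM with it in early G1. In late G1 it was at 30.5, 27.8 and 26.6 CPM without and 36.7, 33.4 and 33.5 CPM with, and in G2 at 29.4, 27.9 and 25.2 CPM without and 33.7, 31.0 and 36.4 CPM with. The groups did not overlap in any phase, which 1.04% of tested genes showed in the upward direction. It follows from this that all 9 same-number comparisons were higher with auxin. The average log2 fold change was 0.25 ± 0.06 (SE, adjusted p = 0.0149 in edgeR), from 0.17 ± 0.10 in early G1 to 0.29 ± 0.10 in late G1 and in G2, where edgeR gave adjusted p of 0.867, 0.27 and 0.333. In late G1, where library numbers paired the samples (952 of all genes called with the block and 163 without it), the test with the replicate number as a block called Nqo1 as well (log2 fold change 0.29 ± 0.08, adjusted p = 0.0313). On log2(TPM + 1) the average was 0.04 with a limma adjusted p of 0.656, or 0.11 relative to the median of all genes on that scale. There the early G1 sign turned, to -0.03, which lay 0.05 above the median of all genes. It also missed the threshold without the libraries numbered 1 (adjusted p = 0.0942), 2 (0.0723) or 3 (0.151), though not when any single library was left out (up to 0.0441).

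Of 13 other AHR target genes listed, 5 had enough counts to be tested. None was called in the average by edgeR, DESeq2 or limma on TPM. In edgeR 1 of the 5 had an unadjusted p under 0.05, where 22.7% of all tested genes did. The median log2 fold change of the 5 was 0.41, against 0.01 for all tested genes, and 4 of 5 were positive, as were 51.4% of all tested genes. The list was chosen with earlier results of these data known, so these values describe its genes and are no test. Cyp2s1, a P450 enzyme, was at 5.12 ± 1.54 CPM without and 6.79 ± 1.49 CPM with auxin (SD, n = 9), with a log2 fold change of 0.41 ± 0.16 (SE, adjusted p = 0.146 in edgeR). Scin, an actin-severing protein, had 0.66 ± 0.40, and Gsta2, a glutathione transferase, 0.44 ± 0.45, both from levels under 0.3 CPM. Nedd9, a scaffold protein of cell adhesion, had 0.14 ± 0.19 and Ugt1a6a, a glucuronosyltransferase, -0.08 ± 0.46.

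Most other P450 genes had too few reads to be tested. Of 101 in the table beside the members, 17 were tested. In the average 1 of the 17 was called, up, where 5.68% of all tested genes were called (2.6% up). This gene, Cyp4f39, rose from 2.41 ± 0.611 to 3.65 ± 0.402 CPM (SD, n = 9), with a log2 fold change of 0.62 ± 0.11 (SE, adjusted p = 0.00191 in edgeR). Cyp2b23 had -0.81 ± 0.25 (0.0631), and Cyp4f17 had -0.20 ± 0.12 (0.313). Cyp2s1 is in this list too. The median over the 17 was -0.00399, against 0.01 for all tested genes.

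Nfe2l2, the regulator, was at 53.5 to 68.2 CPM without auxin (median 58.4 CPM) and at 59.0 to 75.1 CPM with it (median 65.5 CPM). All 9 same-number comparisons were higher with auxin, a count for which no share of all genes was computed. The groups did not overlap in G2 (5.47% of tested genes were higher without overlap there) but did in both G1 groups. The average log2 fold change was 0.16 ± 0.06 (SE, adjusted p = 0.112 in edgeR) and did not pass. On log2(TPM + 1) it had -0.05, where the median of all genes was -0.08. Of 23 NRF2 targets listed, 22 were tested, 2 rose and none fell, where 2.6% of all tested genes rose and 3.09% fell, and their median log2 fold change was 0.08. In edgeR 7 of the 22 had an unadjusted p under 0.05, where 22.7% of all tested genes did. A positive log2 fold change was seen in 18 of the 22 and in 51.4% of all tested genes. This list, too, was chosen with earlier results of these data known, so its values are no test. Cbr3, a carbonyl reductase, rose from 30.8 ± 2.23 to 41.7 ± 7.69 CPM (SD, n = 9), with a log2 fold change of 0.43 ± 0.07 (SE, adjusted p = 0.000596 in edgeR). Srxn1, which repairs oxidised peroxiredoxins, rose from 42.8 ± 2.68 to 50.4 ± 4.27 CPM, with a log2 fold change of 0.24 ± 0.05 (0.0125). Hmox1, heme oxygenase, had 0.31 ± 0.09 and missed the threshold (0.0505), and Prdx1, a peroxiredoxin, had 0.19 ± 0.08 (0.175). DESeq2 called 3 of the 22, where it called 1381 of all 16011 tested genes. On log2(TPM + 1) limma called none of the 22, where its calls over all genes were 59 up and 689 down.

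Among 11 tested regulators and partners of NRF2, edgeR called none, DESeq2 called 1 and limma on TPM 0. In edgeR 4 of the 11 had an unadjusted p under 0.05, where 22.7% of all tested genes did. Sqstm1, the autophagy receptor that binds KEAP1, had a log2 fold change of 0.16 ± 0.05 (SE, adjusted p = 0.0861 in edgeR). Nfe2l1, a relative of NRF2, had 0.12 ± 0.04 (0.0903), Rbx1, a subunit of the ubiquitin ligase that degrades NRF2, had 0.20 ± 0.09 (0.187), and Nfe2l3 had -0.38 ± 0.17 (0.202).

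Among other bHLH-PAS factors, the family of AHR and ARNT, 7 were tested. Of these 1 was called, down, where 5.68% of all tested genes were called (2.6% up and 3.09% down). Epas1, which encodes the hypoxia factor HIF-2α, fell from 18.2 ± 3.20 to 13.5 ± 2.33 CPM (SD, n = 9), with a log2 fold change of -0.43 ± 0.08 (SE, adjusted p = 0.00398 in edgeR). The circadian factor gene Clock had -0.19 ± 0.08 (0.174), Npas1 -0.40 ± 0.23 (0.292) and Hif3a -0.27 ± 0.15 (0.304). ARNT is also the partner of the HIF proteins, and of 13 tested HIF targets, 2 rose and none fell, against the same shares of all tested genes. In edgeR 6 of the 13 had an unadjusted p under 0.05, where 22.7% of all tested genes did. A positive log2 fold change was seen in 10 of the 13 and in 51.4% of all tested genes. The list was chosen with earlier results of these data known, so its values are no test. DESeq2 called 3 of the 13 and limma on log2(TPM + 1) called 0, against 1381 and 748 (59 up, 689 down) of all 16011 tested genes. Vegfa, the blood vessel growth factor, rose with a log2 fold change of 0.48 ± 0.08 (edgeR adjusted p = 0.00146). Ddit4, an inhibitor of mTOR signalling, rose by 0.37 ± 0.07 (0.00195), while Hk2, a hexokinase, had -0.16 ± 0.06 (0.0904) and Bnip3, a mitophagy receptor, 0.27 ± 0.09 (0.0923). Of the xenobiotic nuclear receptors, 2 were tested and neither was called (edgeR; 0 had an unadjusted p under 0.05, and DESeq2 and limma called 0): Nr1i3, the receptor CAR, had -0.05 ± 0.12, and Rxra, its partner, was at 22.1 CPM in the mean of both treatments.

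**Figure D4:**
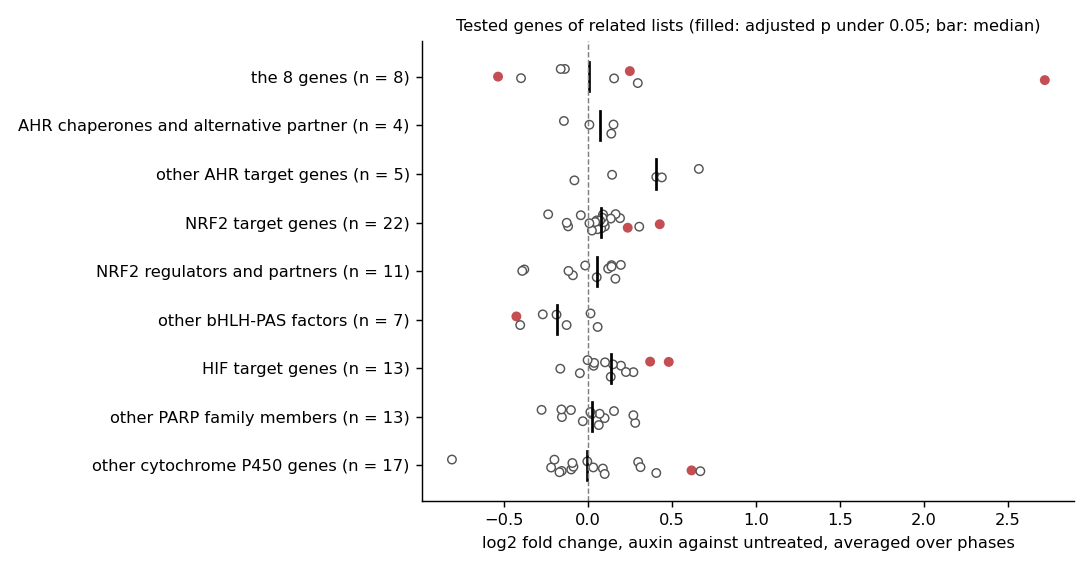
Log2 fold change averaged over phases for each tested gene of the related lists, with filled points at an adjusted p under 0.05 and a bar at each list's median. Cyp1a1 at 2.72 stands to the right of every other point, and the lists' medians lie between -0.19 and 0.41.

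The size of the auxin effect was then compared between phases. None of the 8 genes was called in any of the 3 differences (edgeR; 0 had an unadjusted p under 0.05, and DESeq2 also called 0), where 0% of all tested genes were called. For Cyp1a1, the auxin effect in late G1 exceeded that in early G1 by 0.18 ± 0.49 (SE, log2), with a 95% interval of -0.84 to 1.20. The G2 effect exceeded the early G1 effect by 0.37 ± 0.51, with an interval of -0.71 to 1.45, and the late G1 effect by 0.19 ± 0.57, with an interval of -1.01 to 1.38.

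Without auxin, 2 of the 8 genes differed between early and late G1, both lower in late G1, where 7.02% of tested genes were called (3.75% down). Tiparp was at 68.4 to 74.9 CPM in early G1 and 55.8 to 57.9 CPM in late G1, with a log2 fold change of -0.33 ± 0.09 (SE, adjusted p = 0.0246 in edgeR). Cyp1b1 was at 0.432 to 0.727 CPM in early G1 and 0.0780 to 0.201 CPM in late G1, with a log2 fold change of -1.86 ± 0.48 (0.023). Leaving out any of 5 of the 6 libraries of these groups ended both calls, while the log2 fold changes stayed at -0.29 to -0.357 for Tiparp and -1.57 to -2.06 for Cyp1b1 over all 6. Without the untreated early G1 library 3 both calls were kept (adjusted p = 0.0401 and 0.0291 in edgeR). Leaving out the untreated early G1 library 1 gave adjusted p of 0.0642 for Tiparp and 0.0902 for Cyp1b1, and leaving out early G1 library 2 gave 0.11 and 0.074. Leaving out late G1 library 1 gave 0.0566 and 0.0546, late G1 library 2 gave 0.085 and 0.0579, and late G1 library 3 gave 0.0747 and 0.0863.

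Library numbers paired the untreated groups, and with the number as a block the counts of all genes called rose to 3487 between the G1 groups, 2360 between G2 and early G1 and 2541 between G2 and late G1. Arnt was then called lower in late than in early G1 as well (log2 fold change -0.24 ± 0.07, edgeR adjusted p = 0.0203), beside Tiparp (0.00169) and Cyp1b1 (0.00582). Without the block, edgeR called no member between G2 and early G1, where 3.6% of tested genes were called. Between G2 and late G1 edgeR called none either, where 5.04% were. In each comparison 2 of the 8 genes had an unadjusted edgeR p under 0.05, where 16.8% and 17.4% of all tested genes did. DESeq2 called Ahrr between G2 and early G1, and 0 between G2 and late G1. With the block, Ahrr was lower in G2 than in early G1 by -1.75 ± 0.56 on the log2 scale (edgeR adjusted p = 0.0379), Nfe2l2 was lower by -0.19 ± 0.06 (0.028), and Tiparp was higher in G2 than in late G1 by 0.24 ± 0.07 (0.0225). Cyp1a1 without auxin was at 0.105 to 0.161 CPM in G2 and 0.242 to 0.399 CPM in early G1, and its log2 fold change of -1.24 ± 0.44 did not pass (edgeR adjusted p = 0.143).

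**Figure D5:**
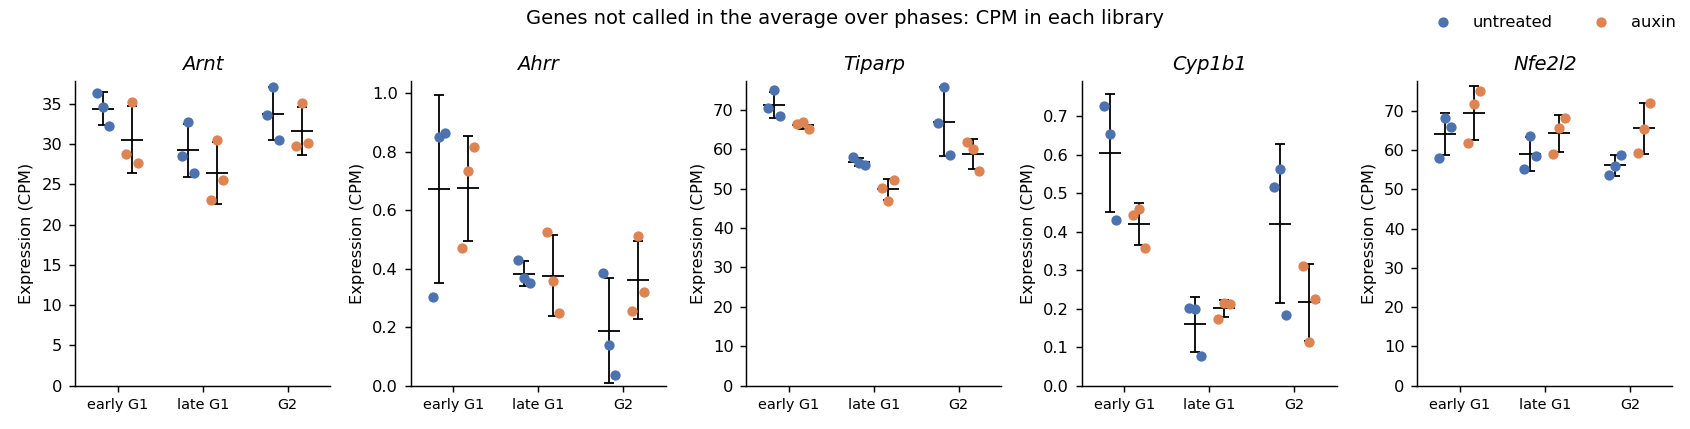
CPM of the 5 genes not called in the average over phases, by phase and treatment, with a point for each library and the mean and SD of 3 libraries. Tiparp is lower in late G1 than in early G1 (55.8 to 57.9 against 68.4 to 74.9 CPM without auxin), and the low counts of Ahrr and Cyp1b1 spread widely.

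The genes whose pattern over the 18 libraries was most like that of Cyp1a1 were Irf1, Slc9a3r2, Btg2, Klf10 and Id1, out of 12813 candidates of sufficient level. Pearson's r over 18 libraries of log2(CPM + 0.5) was 0.931 for Irf1, an interferon-responsive transcription factor, 0.905 for Slc9a3r2, a scaffold protein, 0.879 for Btg2, an antiproliferative factor, 0.872 for Klf10, a zinc-finger factor, and 0.865 for Id1, an inhibitor of bHLH proteins. These values describe likeness alone and largely reflect the group means: within groups, r was -0.216 to 0.164. Btg2, for example, had a mean of 222.2 CPM without and 349.6 CPM with auxin.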

How the data were processed

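RNA was measured in 18 libraries of the GFP Sox2-AID line, grouped by the sample titles. The authors deposited a table of expected counts, estimated reads per gene that the values show as whole numbers, and a table of TPM to 2 decimals. Per the submitters' processing notes, the tools were RSEM, STAR, MACS2 and Bowtie2 and the build was mm9, without versions or roles; whether counting used strand is not given in the sources used here. Of the gene IDs, 87.4% matched a symbol table, and no column of another sample was present. The other deposited profiles and ChIP-seq libraries were not analysed here.

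Counts were filtered with filterByExpr (16011 genes kept), TMM-scaled, and fitted in edgeR 4.0.16 (R 4.3.3) with 1 mean per group over all 18 libraries and a robust quasi-likelihood F test, with Benjamini-Hochberg adjustment over all tested genes and a threshold of 0.05. CPM use the TMM-scaled library size. The common biological coefficient of variation was 0.14. Depth was 24841963 to 37587322 counts per library, so genes with few counts are limited by counting error. Alternatives used DESeq2 1.42.0, limma 3.58.1 on log2(TPM + 1) or log2(TPM + 0.1), other filters and scaling, a replicate block and left-out libraries. The edgeR script was tested on simulated data.

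The members and gene lists were chosen with earlier results of these data known. The text names the 8 members, up to 4 tested genes of each list with the smallest p in the average, every called gene of the AHR, NRF2 and bHLH-PAS lists, the neighbours of Cyp1a1 and the 5 genes most like it. A further chaperone gene was left out of its list and is not reported here. The remaining AHR target genes, and the marker genes, were named after their values were seen.

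Pairing of library numbers is not stated in the labels. It was checked as how far same-numbered libraries of different groups departed together from their group means, as a correlation over genes. Every pair was above 0.1 for auxin in early G1 (0.33 to 0.39), auxin in late G1 (0.35 to 0.4) and the untreated contrasts (0.32 to 0.63), but not for auxin in G2 or the average (lowest 0.058).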

Additional observations from a re-analysis of the deposited data

How the results depend on the processing

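Averaged over phases, Cyp1a1 kept its direction and call in all 30 alternatives run, with a log2 fold change of 0.108 to 3.06. The low end is from log2(TPM + 1), where low values shrink, and log2(TPM + 0.1) gave 0.729. On counts, leaving out any single library gave 2.63 to 2.93, and DESeq2 gave 2.75. The rise of Nqo1 lost its call in 7 of 30 and the fall of Ahr in 3 of 30, with no change of sign. Tiparp, uncalled as reported, was called lower in 8 of 30.

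With the replicate block, members called for auxin were 2 in late G1 (Nqo1 added), 3 in G2 (Nqo1 and Nfe2l2 added) and 6 in the average (Arnt, Tiparp and Nfe2l2 added). Members called without auxin were 3 between late and early G1, 2 between G2 and early G1 and 1 between G2 and late G1. The block ended no member's call. All genes called for auxin with the block, against without it, were 255 and 17 (early G1), 952 and 163 (late G1), 562 and 107 (G2) and 3939 and 910 (average).

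The number of members called for auxin in late G1 and in G2 fell to 0 with limma on log2(TPM + 1), with or without the filter, and in late G1 also on log2(TPM + 0.1). For untreated late minus early G1, where 2 members were called, it was 0 on each TPM scale, and 1 with no filter, a filter of 1 CPM in 3 libraries (which removed Cyp1b1), DESeq2 (which gave Cyp1b1 no adjusted p) or no untreated libraries numbered 3. DESeq2 called 1 for untreated G2 minus early G1. Leaving out libraries gave 0 to 1 members called for auxin in each phase, 1 to 4 in the average, 0 to 2 between untreated late and early G1, and 0 to 1 between untreated G2 and early G1 or late G1.

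Signs turned on the TPM scales, where the median of all genes was itself below 0. On log2(TPM + 1), with either filter, Ahrr had -0.00455 in early G1 and in G2 and -0.00462 in the average, Nqo1 -0.0328 in early G1, and Nfe2l2 -0.111 (early G1), -0.0708 (late G1) and -0.0518 (average). On log2(TPM + 0.1) these were -0.0294, -0.0283, -0.0332, -0.0404, -0.127, -0.0838 and -0.0605. In the average, the median of all genes was -0.0767 on log2(TPM + 1) and -0.159 on log2(TPM + 0.1). Relative to these, Ahrr had 0.072 and 0.125, Nqo1 0.112 and 0.201, Nfe2l2 0.0249 and 0.0981, Cyp1a1 0.185 and 0.887, and Ahr 0.0256 and -0.17. With all genes above 0 kept, the log2(TPM + 1) median was -0.0221, and Nfe2l2 had -0.0297 relative to it. Left-out libraries moved Ahrr between -0.348 and 0.227 in early G1 and between -0.348 and 0.205 in late G1, and Cyp1b1 in late G1 between -0.0556 and 0.569. Without the untreated libraries numbered 3, Cyp1b1 in late G1 had -0.00642. The cause of these changes was not tested.

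Over all alternatives, genes called ranged from 0 to 255 for auxin in early G1, 5 to 952 in late G1, 2 to 562 in G2, 320 to 3939 in the average, and, without auxin, 207 to 3487 between the G1 groups, 66 to 2360 between G2 and early G1 and 178 to 2541 between G2 and late G1. Low counts per library limit Ahr, Ahrr, Cyp1a1 and Cyp1b1.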
